A study of Mus musculus with 34 samples.

Results

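The expression of 9 interferon-stimulated genes was examined in cumulus cells, the somatic cells that surround the oocyte and are released with it at ovulation. They were Stat2, Irf1, Irf7, Irf9, Isg15, Ifit1, Ifit2, Ifit3 and Oasl2, chosen by name from the gene table, and all 9 were found among its 25965 entries. The table covered 34 RNA-seq libraries in 7 groups of C57BL/6J mice. All were females, 8 weeks old at the start, so age at collection differed between groups treated for 16 days, 4 weeks and 16 weeks. The injected mice received intraperitoneal saline (16 C, n = 3) or, at a dose of 100 µg per day, leptin (16 L, n = 5), over 16 days. The diet groups ate chow (CD, 11% of energy from fat) or a high-fat diet (HFD, 58% of energy from fat) for 4 weeks (n = 5 and n = 5) or 16 weeks (n = 6 and n = 7). A further group of 3 mice had gained little weight after 16 weeks of HFD (low gainers), and the labels give no weight limit for it. All mice were superovulated, and each library came from cumulus cells of 1 animal, so injected leptin, like diet, reached the cells through the whole animal.

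Interferons bind receptors whose kinases, JAK1 and TYK2, phosphorylate STAT2 among other factors. STAT2 and IRF9 are subunits of the complex ISGF3, which binds interferon-stimulated response elements (ISREs). Gamma-activated sites (GAS) are a second kind of element through which interferons act. IRF1 and IRF7 are transcription factors that extend the response, and IRF7 amplifies type I interferon production. Isg15 encodes a ubiquitin-like protein, the Ifit genes encode proteins that bind viral RNA, and Oasl2 encodes a member of the 2′-5′-oligoadenylate synthetase family. All of these genes are best known from the response of immune and other cells to viral infection.

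The promoter windows of the genes were searched for the letters of both elements on both strands, because these are the sites through which the pathway is known to act. RefSeq windows (GRCm38.p6), reaching from 250 bases before to 50 bases after a transcript start, were found for 9 of 9 genes. The ISRE core was GAAANNGAAA and the GAS core TTCNNNGAA. Of all 32851 promoter windows, 3.44% held the ISRE core and 8.3% the GAS core. The ISRE core was found in windows of 4 genes, Isg15, Ifit1, Ifit3 and Stat2. The GAS core was found in windows of 2 genes, Irf1 and Ifit2, and no match of either core was found for Irf7, Irf9 or Oasl2. The stretches with a match are printed 5′ to 3′ on the strand of the gene, with the matching bases in capitals.
Isg15, chr4:156200863-156200908, minus strand: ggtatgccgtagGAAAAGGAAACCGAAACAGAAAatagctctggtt
Ifit1, chr19:34640773-34640825, plus strand: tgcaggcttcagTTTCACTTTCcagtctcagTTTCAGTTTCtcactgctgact
Ifit3, chr19:34583361-34583428, plus strand: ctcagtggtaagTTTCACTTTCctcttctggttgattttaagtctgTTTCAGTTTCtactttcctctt
Stat2, chr10:128270264-128270297, plus strand: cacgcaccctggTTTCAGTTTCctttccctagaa
Irf1, chr11:53769912-53769944, plus strand: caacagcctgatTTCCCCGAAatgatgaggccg
Ifit2, chr19:34550444-34550473, plus strand: catgggagcTTCCTGGAAgaatggataaaa
Isg15 had 3 overlapping matches, starting 78 bases before its transcript start. Ifit1 had 2 matches, in the 104 bases before its start, and Ifit3 had 2, in the 156 bases before its start. The single matches lay 222 bases before the start of Stat2, 90 before that of Irf1 and 241 before that of Ifit2. A match describes these letters and does not show that a factor was bound in cumulus cells.

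**Figure D1:**
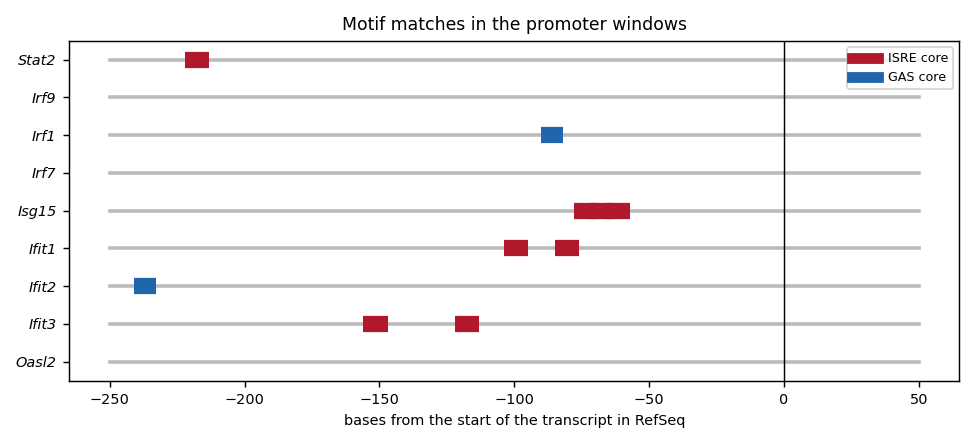
Position of ISRE core (red) and GAS core (blue) matches in the promoter windows of the 9 genes, in bases from the RefSeq transcript start (vertical line). Isg15, Ifit1, Ifit3 and Stat2 carry ISRE core matches, Irf1 and Ifit2 carry a GAS core match, and the other 3 genes carry neither.

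Library totals ranged from 1104611 to 13207018 counts, and values are given as CPM (counts scaled to a common library size) after TMM scaling over all 34 libraries. The spread between libraries covers both mice and technical error, and in bulk libraries fewer cells of a type and less RNA per cell cannot be told apart. Transcripts of cumulus and granulosa cells were present in each group, with summed levels of 12 marker genes between 791 and 4663 CPM. Library 16 L replicate 18 stood apart. Its mean correlation with the rest of its group was 0.62, against 0.751 to 0.962 for the others with theirs, and it held the lowest cumulus marker sum, 791 CPM. It also held 36504 CPM of 10 oviduct epithelium markers, against 56.3 to 1873 CPM in the other 16 L libraries. Its red blood cell markers summed to 11250 CPM, against 3.1 to 1942 CPM in the other 16 L libraries and 1.54 to 30.2 CPM in 16 C. Of those others, replicate 21 held the most of both, 1942 CPM of red blood cell and 1873 CPM of oviduct epithelium markers. The leptin comparison is therefore given with and without replicate 18, and leaving it out does not remove all such markers.

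The 9 genes divided into 5 that were read in each of the 34 libraries and 4 that were missing from at least 1 library. Per kilobase of exon, averaged over the 7 groups, Irf9 had the highest level (8.75 CPM per kb), followed by Oasl2 (7.59), Isg15 (7.03), Irf7 (4.26), Irf1 (3.74) and Stat2 (2.78). The Ifit genes were lowest, with 1.25 CPM per kb for Ifit1, 0.368 for Ifit3 and 0.159 for Ifit2. Isg15 had a read in 33 libraries, Ifit1 in 28, Ifit2 in 15 and Ifit3 in 12.

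Beyond the 9 genes, 105 genes of the pathway were followed. Of the 9 interferon genes on the list, which encode ligands, 6 had no read in any library. Ifnb1 and Ifng each had 1 read in all, and Ifne had 36 reads, all in 16 L replicate 18. By contrast, both subunits of the type I receptor and of the interferon-gamma receptor were read in all 34 libraries, with 24969 reads of Ifnar1 and 19542 of Ifngr2. The kinases Jak1 (37577 reads), Jak2 (9447) and Tyk2 (3750) were too. Il28ra, the specific subunit of the type III receptor, was sparse, with 81 reads in 16 libraries. The table thus held both subunits of the type I and interferon-gamma receptors in each library, and nearly no reads of the 9 listed ligand genes. Interferon genes outside the list were not examined.

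Among transcription factors, Irf9, the DNA-binding subunit of ISGF3 (chromosome 14, 55603571 to 55610030, plus strand), had the narrowest range of group means for its level. They ran from 37.5 ± 11.6 CPM (SD, n = 7) in 16-week HFD to 57.2 ± 15.0 CPM (SD, n = 3) in low gainers, and groups next to each other in this order overlapped. Of its exons, 123 bases also lie in exons of Rnf31 on the same strand. Its partner Stat2 (chromosome 10, 128270576 to 128292849, plus strand) ran from 8.43 ± 1.96 CPM (SD, n = 7) in 16-week HFD to 29.8 ± 23.1 CPM (SD, n = 5) in 4-week CD. The latter mean rested on replicate 8, at 68.4 CPM, while the other 4-week CD libraries held 13.7 to 34.3 CPM. Neighbouring groups overlapped for Stat2 as well.

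Irf1 (chromosome 11, 53770014 to 53778374, plus strand) was lowest in 16-week HFD, at 9.09 ± 2.62 CPM (SD, n = 7), and highest in 4-week HFD, at 18.6 ± 3.88 CPM (SD, n = 5). Irf7 (chromosome 7, 141262706 to 141266481, minus strand) had the widest range of the factors. It was lowest in 16-week HFD, at 5.88 ± 2.71 CPM (SD, n = 7), and highest in 4-week HFD, at 29.9 ± 14.8 CPM (SD, n = 5). In the order of Irf7 means, 16 C (12.0 ± 1.47 CPM, SD, n = 3) and 16-week HFD were the one pair of neighbours whose libraries did not overlap. The lowest 16 C library held 11.0 CPM and the highest 16-week HFD library 10.8 CPM. These groups differed in treatment and age, and the share of all genes with such a gap was not computed. Oasl2 (chromosome 5, 114896936 to 114912234, plus strand) ran from 20.4 ± 13.5 CPM (SD, n = 3) in 16 C to 67.6 ± 22 CPM (SD, n = 5) in 16 L. For Irf1 and Oasl2, neighbours in the order overlapped.

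**Figure D2:**
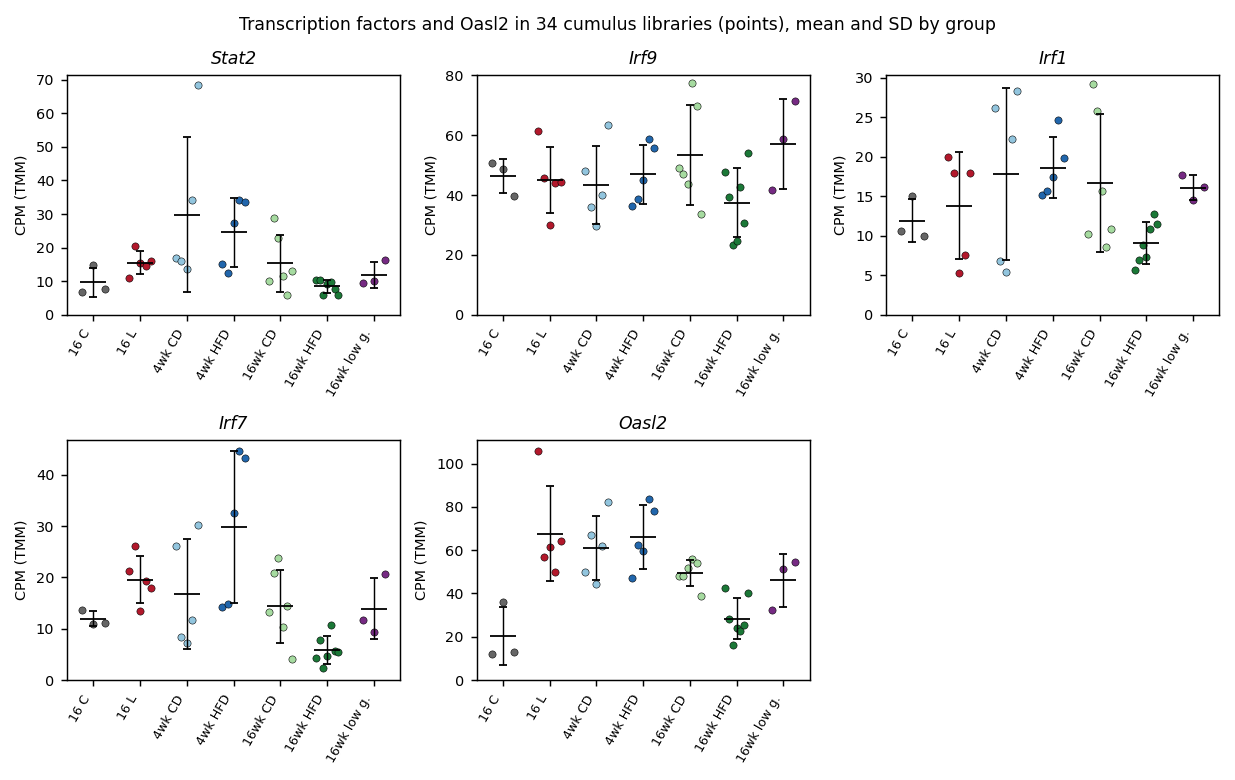
Level in CPM of Stat2, Irf9, Irf1, Irf7 and Oasl2 in each of the 34 libraries (points) of the 7 groups, with the mean and SD (lines; lower bars stop at 0). Irf7 and Irf1 are lowest on average in 16-week HFD, and Oasl2 is lowest in 16 C.

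The first comparison asked how 16 days of leptin changed the cells. In the fit of all 8 libraries, none of the 7 members tested was called. A gene was called when its p from edgeR's quasi-likelihood F-test, adjusted by Benjamini-Hochberg over all genes in the fit, was under 0.05, and the same test gave the adjusted p values that follow unless DESeq2 is named. In this comparison 1004 of 11723 genes, or 8.56%, were called. An unadjusted p under 0.05 was found for 1 member and for 3798 genes. Oasl2 held 12.1, 36.0 and 13.1 CPM in 16 C, and 106, 56.9, 61.6, 49.7 and 64.2 CPM in 16 L. All 5 leptin libraries lay above all 3 controls. The share of all genes tested whose groups do not overlap was not computed, here or in the comparisons that follow. The log2 fold change of Oasl2 was 1.69 (SE 0.487, adjusted p = 0.0566). Oasl2 was called in the same libraries by DESeq2 (1.67, adjusted p = 0.0102) and with scaling by total counts (2.50, adjusted p = 0.0103), and when all 34 libraries entered 1 fit (1.68, adjusted p = 0.000839). These settings called 2629, 4035 and 4384 genes in all, against 1004 in the main fit, so Oasl2 is not set apart by them. Over all genes in the fit the median was 0.27, and 1.08 when libraries were scaled by total counts. Oasl2 lay 1.42 above the former.

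Among the transcription factors the differences were smaller. Irf7 held 13.6, 11.0 and 11.2 CPM in 16 C, and 21.2, 26.2, 13.5, 19.3 and 17.9 CPM in 16 L, and 4 of 5 leptin libraries lay above all controls. Its log2 fold change was 0.72 (SE 0.366, adjusted p = 0.198). Stat2 differed by 0.62 on the log2 scale (SE 0.427, adjusted p = 0.331), and 3 of 5 leptin libraries lay above the controls. In CPM, Irf1 and Irf9 overlapped widely, with log2 fold changes of 0.21 and -0.04. Scaling by total counts turned that of Irf9 to 0.74. It also called Irf7 (adjusted p = 0.0228) and Stat2 (adjusted p = 0.0363), among 4035 genes, where the median of all genes was 1.08. On counts divided by library totals, without TMM, 16 L and 16 C did not overlap for Irf7, Stat2 or Irf9. The result for these genes thus depended on the scaling.

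In this experiment the levels of Isg15 and Ifit1 in 16 L were highest in 1 library. Isg15 (chromosome 4, 156199424 to 156200818, minus strand) held 11.4, 13.9 and 6.57 CPM in 16 C. In 16 L it held 30.5 CPM in replicate 18, and 4.10, 1.31, 2.76 and 3.72 CPM in the others. So 1 leptin library lay above the controls and 4 lay below them. Ifit1 (chromosome 19, 34640871 to 34650009, plus strand) held 0, 8.29 and 3.86 CPM in 16 C, and 44.1, 3.20, 4.37, 2.07 and 1.69 CPM in 16 L, again with the highest value in replicate 18. The log2 fold changes of all libraries were -0.27 for Isg15 (SE 0.939, adjusted p = 0.863; 0.29 with scaling by total counts) and 1.37 for Ifit1 (SE 1.30, adjusted p = 0.482). The remaining 4 leptin libraries, at 1.69 to 4.37 CPM of Ifit1, lay within the range of 16 C.

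Without 16 L replicate 18, both Isg15 and Oasl2 passed the threshold, in opposite directions. Isg15 fell by 1.90 on the log2 scale (SE 0.523, adjusted p = 0.0168). Oasl2 rose by 1.33 (SE 0.414, adjusted p = 0.0276), where the median of all genes tested was 0.10. In this fit 4635 of 11077 genes, or 41.8%, were called, so that 2 called members are not set apart from the background. When the same libraries were scaled by total counts, a choice made after seeing the data, that median was 1.09. Isg15 was then at -0.88 (adjusted p = 0.181) and Oasl2 at 2.40 (adjusted p = 0.000574). With TMM scaling, Irf7, at 0.61 (adjusted p = 0.157), and Stat2, at 0.60 (adjusted p = 0.228), did not pass. Leukocyte markers ranged from 102 to 1728 CPM in 16 L and from 139 to 829 CPM in 16 C. The sums of the cumulus and granulosa cell markers did not overlap, at 791 to 1944 CPM in 16 L and 2984 to 3810 CPM in 16 C. Oviduct epithelium markers summed to 56.3 to 36504 CPM in 16 L and to 122 to 151 CPM in 16 C. The part of these markers in the differences of the members, and in those of the pathway genes that follow, was not tested.

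Of the other pathway genes, 2 of 73 tested were called in 16 L, both lower. Zc3hav1, an antiviral protein that binds viral RNA, went from 5382 to 7537 CPM in 16 C to 105 to 912 CPM in 16 L. It fell by 4.41 on the log2 scale (SE 0.825, adjusted p = 0.0211). Ifngr2, a subunit of the interferon-gamma receptor, went from 216 to 299 CPM to 41.0 to 130 CPM, and fell by 1.71 on that scale (SE 0.403, adjusted p = 0.0369). For both genes, 16 L and 16 C did not overlap, a state whose share over all genes tested was not computed. Of the 7 groups, 16 C had the highest mean of both genes. Zc3hav1 held 105 to 200 CPM in 4-week CD, 174 to 4417 CPM in 16-week CD and 857 to 4062 CPM in 16-week HFD. In the same groups Ifngr2 held 45.3 to 107, 74.1 to 135 and 66.3 to 233 CPM. With single libraries left out in turn, the calls of Zc3hav1 and Ifngr2 were each lost in 6 of 8 fits, with adjusted p up to 0.0879 for Zc3hav1 and 0.16 for Ifngr2. Ifngr2 also missed the threshold with scaling by total counts (-0.95, adjusted p = 0.0558). Without 16 L replicate 18, 29 genes of the list were called, both of these among them, where the background of calls was 41.8%.

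The second comparison set 4 weeks of HFD against chow. None of the 6 members tested was called, where 499 of 11727 genes, or 4.26%, were. An unadjusted p under 0.05 was found for none of them and for 2845 genes. Irf7 held 26.2, 8.43, 7.16, 11.8 and 30.3 CPM in 4-week CD, and 14.3, 14.8, 32.5, 44.6 and 43.3 CPM in 4-week HFD. Of the HFD libraries, 3 lay above all controls, and the other 2 lay among them. Its log2 fold change was 0.79 (SE 0.428, adjusted p = 0.262). The log2 fold changes of Irf1, Irf9, Oasl2 and Isg15 lay between 0.03 and 0.11, and scaling by total counts turned those of Irf1, Irf9 and Oasl2 below 0. That of Stat2 was -0.32, and 0.26 without 4-week CD replicate 8.

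Beside these, 4 of 67 other pathway genes were called at 4 weeks, all lower in HFD, and 3 were regulators of transcription. Traf3, an adaptor of interferon-inducing sensors, went from 16.5 to 48.2 CPM in CD to 9.19 to 16.4 CPM in HFD (log2 fold change -1.55, adjusted p = 0.0197). Irf5, a factor best known in myeloid cells, went from 12.2 to 31.0 CPM to 5.44 to 8.82 CPM (-1.35, adjusted p = 0.0275). Irf2bp2, a partner of IRF2, went from 83.4 to 167 CPM to 41.9 to 81.9 CPM (-1.22, adjusted p = 0.0273). Irf3, the factor activated by viral RNA sensing, went from 53.4 to 119 CPM to 35.1 to 46.4 CPM (-0.93, adjusted p = 0.0417). For all 4, the HFD and CD libraries did not overlap, and the share of all genes tested that do not was not computed. Leaving out 1 library ended the calls of these genes in 4 to 8 of 10 fits, among them the fit without 4-week CD replicate 8, where the adjusted p was between 0.0645 and 0.123. None of the 4 was called in the fits without 4-week HFD replicate 3, 4 or 5 (adjusted p between 0.0508 and 0.0909). The same held for the fit of all 34 libraries. Replicate 5 held 327 CPM of 10 oocyte markers, against 0.557 to 2.97 CPM in the other 4-week HFD libraries, and their part in these values was not tested. In all, 36 genes were called without HFD replicate 3, 92 without replicate 4 and 22 without replicate 5.

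The third comparison set 16 weeks of HFD against chow. Of the 6 members tested, 5 had log2 fold changes of -0.49 or below in HFD, and none was called by edgeR, which called 3 of 10861 genes, or 0.0276%. An unadjusted p under 0.05 was found for 4 members and for 2748 genes. Medians on the log2 scale were -0.84 for the members tested and -0.05 for all genes in the fit (-0.40 with scaling by total counts).

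Irf7 had the largest difference of these. It held 4.14 CPM at the lowest, 13.8 at the median and 23.7 at the highest in 16-week CD, and 2.44, 5.44 and 10.8 CPM in 16-week HFD. The groups overlapped, through CD replicates 5 and 9, and 1 HFD library lay below all controls. The log2 fold change was -1.29 (SE 0.396, adjusted p = 0.076). In the same comparison Phrf1, which shares 45 of the 3776 exon bases of Irf7 on the opposite strand, had a log2 fold change of -1.36 (adjusted p = 0.099). The library kit does not mark strand, so reads in those bases cannot be told apart. Phrf1 was at 0.89 in 16 L, 0.02 at 4 weeks, and 0.26 and -1.06 in low gainers against 16-week HFD and CD. The values of Irf7 there were 0.72, 0.79, 1.18 and -0.08. The part of Phrf1 reads in the Irf7 values was not tested.

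Oasl2 held 38.9, 50.0 and 55.7 CPM (lowest, median, highest) in 16-week CD, and 16.1, 25.4 and 42.7 CPM in 16-week HFD. Of the 7 HFD libraries, 5 lay below all controls, and HFD replicates 6 and 10 reached the lowest control. The log2 fold change was -0.79 (SE 0.223, adjusted p = 0.0662). Irf1 held 8.6, 13.2 and 29.2 CPM in CD and 5.67, 8.78 and 12.7 CPM in HFD, with 3 HFD libraries below all controls (-0.89, SE 0.336, adjusted p = 0.12). Stat2 held 5.89, 12.2 and 28.7 CPM in CD and 5.85, 9.19 and 10.3 CPM in HFD, and 2 HFD libraries lay just below all controls (-0.90, SE 0.351, adjusted p = 0.128). For Irf1 and Stat2, the wider range lay in CD, where replicates 1 and 2 were highest. Irf9 differed by -0.49 (adjusted p = 0.211) and Isg15 by -0.08 (adjusted p = 0.946).

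The calls of this comparison depended on the test. DESeq2, applied to the same libraries, called Irf7 (log2 fold change -1.26, adjusted p = 0.0288) and Oasl2 (-0.76, adjusted p = 0.0255), beside 1056 genes or 9.72% of those tested. With edgeR but without 16-week CD replicate 9, which held the lowest Irf7 and Oasl2 of its group, 2222 genes were called. Irf7 was then at -1.48 (adjusted p = 0.0155), Oasl2 at -0.85 (adjusted p = 0.0213) and Irf1 at -0.99 (adjusted p = 0.0493).

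None of the 61 other pathway genes tested was called at 16 weeks by edgeR, and 14 had an unadjusted p under 0.05. DESeq2 called 5 of the list. Leukocyte markers summed to 85.2 to 568 CPM in CD and 148 to 755 CPM in HFD, with 2 of 17 at 0 in each group. Their part in the member values was not tested.

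**Figure D3:**
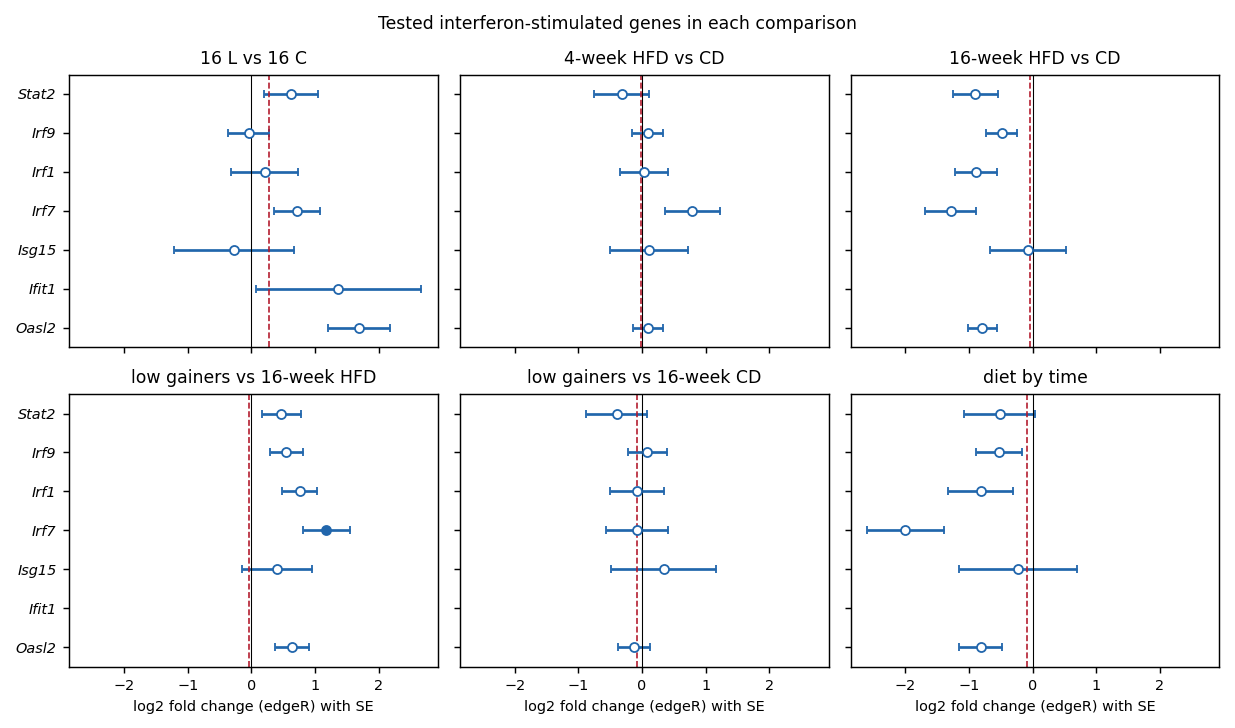
Log2 fold change (edgeR, bars are SE) of the members tested in each of 6 comparisons; filled points are past an adjusted p of 0.05, and the dashed red line is the median of all genes tested. Irf7 in low gainers against 16-week HFD is the one filled point, and the members tested lie left of the median in 16-week HFD against CD except for Isg15, which is near it.

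Low gainers ate the same diet as 16-week HFD, so the fourth comparison set them against it. Irf7 was higher in low gainers, and it was the 1 of 6 members tested that was called, where 2330 of 11258 genes, or 20.7%, were. The low gainers held 11.7, 9.38 and 20.6 CPM of Irf7, and 16-week HFD held 2.44 to 10.8 CPM with a median of 5.44. Of the 3 low gainers, 2 lay above all HFD libraries. The log2 fold change was 1.18 (SE 0.367, adjusted p = 0.0318). The call was lost without low gainer replicate 23 (0.79, adjusted p = 0.271), low gainer replicate 21 (adjusted p = 0.0664) or HFD replicate 14 (adjusted p = 0.0514). It was also lost when all 34 libraries entered 1 fit (adjusted p = 0.13).

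Irf1 was the member whose libraries did not overlap, and the share of all genes tested that do not was not computed. Irf1 held 17.7, 14.5 and 16.2 CPM in low gainers, and 5.67 to 12.7 CPM in 16-week HFD. Its log2 fold change of 0.76 fell short of the threshold (SE 0.277, adjusted p = 0.0567). DESeq2 put it at an adjusted p of 0.0478. The share of all genes that DESeq2 called here is not given, and edgeR called 20.7%. Oasl2 held 32.2, 51.5 and 54.5 CPM in low gainers (0.64, SE 0.274, adjusted p = 0.103). Irf9 held 41.6, 58.7 and 71.4 CPM (0.55, SE 0.258, adjusted p = 0.13). The values of all 6 tested members were above 0, with a median of 0.60, where 48.3% of all genes tested were above 0. Isg15, at 0.40 in the fit of all libraries, was at -0.17 without low gainer replicate 23.

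Of 66 other pathway genes tested, 6 were higher and 1 was lower in low gainers, where the background of calls was 20.7%. The 6 with the smallest adjusted p are named. Dhx58, the RNA sensor LGP2, held 6.44 to 16.2 CPM in low gainers and 1.46 to 5.39 CPM in HFD (1.75, adjusted p = 0.00745), and its call was lost without replicate 23 (adjusted p = 0.108). Uba7, the enzyme that activates ISG15 for conjugation, held 5.15 to 7.76 CPM and 0.919 to 3.97 CPM (1.49, adjusted p = 0.0237). Myd88, the adaptor of most Toll-like receptors, held 31.9 to 37.2 CPM and 12.7 to 28.5 CPM (0.91, adjusted p = 0.0168). The receptor subunits Ifnar1 (0.69, adjusted p = 0.0238) and Il10rb (0.69, adjusted p = 0.0314), which serve type I and type III interferons, were higher too. Irf5 was lower, at 10.4 to 13.9 CPM against 13.8 to 33.1 CPM (-1.03, adjusted p = 0.0289). Each of these calls was lost without low gainer replicate 23, with adjusted p up to 0.223. Without replicate 21 those of Ifnar1, Il10rb, Irf5 and Uba7 were lost too, and without replicate 22 those of Myd88 and Irf5. Irf5 was also lost without HFD replicate 14 or 16, and Il10rb without HFD replicate 14.

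Against 16-week CD, the low gainers showed no called member. One of 11620 genes, or 0.00861%, was called. An unadjusted p under 0.05 was found for none of the 6 members tested and for 1299 genes. Log2 fold changes ran from -0.40 for Stat2 to 0.34 for Isg15, with -0.08 for Irf7, -0.08 for Irf1 and -0.12 for Oasl2. Irf7 averaged 13.9 ± 5.92 CPM (SD, n = 3) in low gainers and 14.4 ± 7.09 CPM (SD, n = 6) in CD. With SEs as wide as those drawn in the plot of fold changes, a difference of moderate size could not be detected. The comparisons of the 3 16-week groups share libraries and are not independent of each other.

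The last comparison asked whether the effect of HFD differed between 16 and 4 weeks, as the log2 fold change at 16 weeks minus that at 4 weeks. All 6 members tested had negative values, with a median of -0.68 against -0.09 for all genes tested. Irf7 had the largest, at -2.0 (SE 0.599, adjusted p = 0.0529), and it was not called, where 448 of 12235 genes, or 3.66%, were. Irf7 was 1.78 times as high in HFD as in CD on average at 4 weeks, and 0.41 times as high at 16 weeks. With DESeq2 the adjusted p of Irf7 was 0.0205, where 1165 genes were called. Oasl2 was at -0.82 (SE 0.337, adjusted p = 0.139).

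Of 70 other pathway genes tested, 3 were called, of which 2 had positive values and 1 a negative one. Those with positive values were Irf5 at 1.99 (adjusted p = 0.0249) and Irf2bp2 at 1.75 (adjusted p = 0.0287). Both had been lower in HFD at 4 weeks. The call of Irf5 was lost without 4-week CD replicate 2 or 4-week HFD replicate 5, where the adjusted p reached 0.0572. That of Irf2bp2 was lost in 7 of 23 fits with 1 library left out, with adjusted p up to 0.0623.

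Isg15 and Ifit1 had few reads in the diet groups. Isg15 held between 0 and 9.42 CPM in their libraries, and Ifit1 between 0 and 6.91 CPM. Ifit1 had 88 reads in 4-week HFD and 30 in 4-week CD, with p = 0.294 by an exact two-sided permutation test on log2(RPM + 1). RPM values were divided by library totals, without TMM. At 16 weeks it had 15 reads in HFD and 24 in CD (exact permutation test, p = 0.749). In 16-week CD, replicate 5 held 20 of these 24 reads. The low gainers had 24 reads too, 20 of them in replicate 23 (exact permutation test against 16-week HFD, p = 0.225). Of 50-base windows of Ifit1 transcripts, 7.06% also occur in Ifit1bl2.

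Ifit2 (chromosome 19, 34550694 to 34576419, plus strand) had 94 reads in all. Of these, 47 lay in 16 C replicate 2, the deepest library, and the other 16 C libraries had none. Low gainer replicate 23 held 11 reads and the remaining libraries held at most 9. Ifit3 (chromosome 19, 34583531 to 34588731, plus strand) had 103 reads, of which 51 lay in 16 L replicate 18, 17 in low gainer replicate 23 and 11 in 16-week CD replicate 5. It had no read in 16 C, where a count of 0 allows up to 0.227 to 1.68 RPM per library, and none in 4-week CD. Between 16 L and 16 C the difference of mean log2(RPM + 1) of Ifit3 was 1.02 (exact permutation test, p = 0.375), and 0.49 without 16 L replicate 18 (exact permutation test, p = 0.429). For neither gene did a comparison pass 0.05 (exact permutation tests, lowest p = 0.125, for Ifit3 in low gainers against 16-week HFD). Of 50-base windows of Ifit3 transcripts, 51.2% also occur in Ifit3b, its near copy, so its reads could be split between both. Ifit3b had 22 reads in all.

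**Figure D4:**
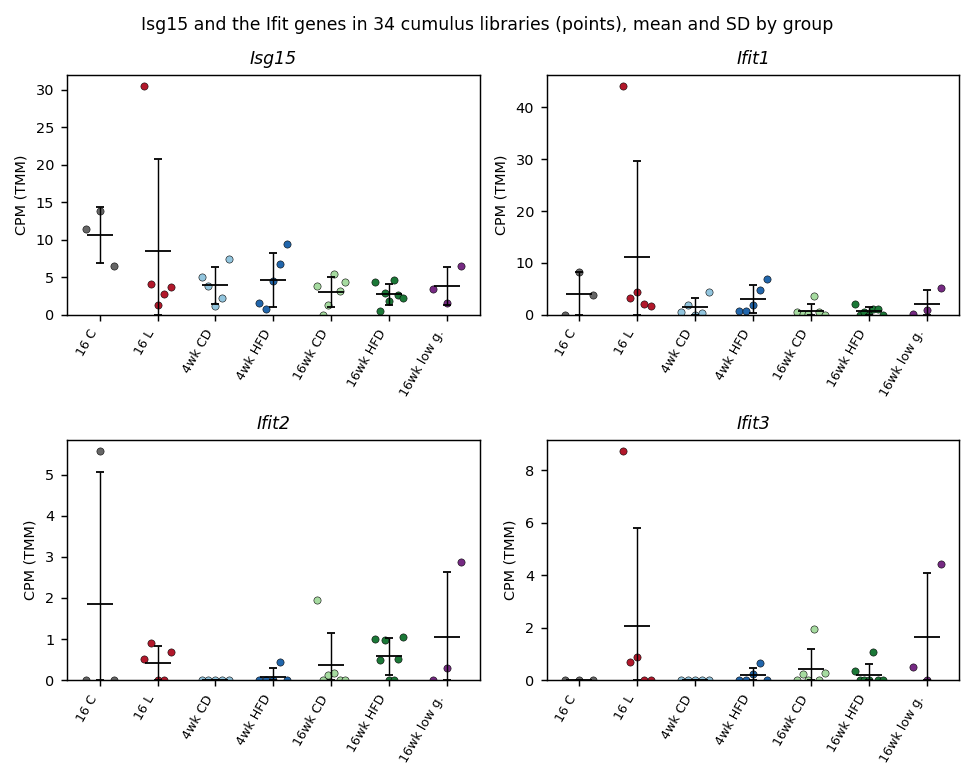
Level in CPM of Isg15, Ifit1, Ifit2 and Ifit3 in each of the 34 libraries (points) of the 7 groups, with the mean and SD (lines; lower bars stop at 0). In 16 L, replicate 18 lies above the rest of its group for Isg15 (30.5 CPM), Ifit1 (44.1 CPM) and Ifit3 (8.73 CPM).

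The same libraries tended to be high for several effectors. With group means removed, Isg15 and Ifit1 had r = 0.701 over the 34 libraries (permutation within groups, adjusted over 8 pairs p = 0.0012; rho = 0.649, adjusted p = 0.00312). Ifit1 and Ifit3 had r = 0.70 (permutation, adjusted p = 0.00176; rho = 0.555, adjusted p = 0.00444). With the 2 libraries most distant from the first gene's median removed, r was 0.665 and 0.627. Within 16-week CD the 2 correlations were 0.446 and 0.898, and within 16-week HFD 0.748 and 0.58. Of the sparse genes, Ifit2 went with Ifit1 less closely, at r = 0.335 (permutation, adjusted p = 0.186; rho = 0.322, adjusted p = 0.148).

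The ISGF3 subunits Stat2 and Irf9 gave a correlation that depended on the scale. On log2(RPM + 1) it was r = 0.463 (permutation, adjusted p = 0.0403; rho = 0.461). After TMM scaling it was 0.219 and no longer past 0.05 (permutation, adjusted p = 0.27). Isg15 had r = 0.212 with Irf7 (permutation, adjusted p = 0.276; rho = 0.26). With Oasl2 it had r = 0.217 (permutation, adjusted p = 0.219, rho = 0.243), and 0.412 after TMM scaling (permutation, adjusted p = 0.0392). Within 16-week CD and 16-week HFD, on log2(RPM + 1), Isg15 had r = -0.632 and -0.0114 with Irf7. The values with Oasl2 were -0.505 and -0.0158. In the same 2 groups Stat2 and Irf9 had 0.217 and 0.349, and Ifit1 and Ifit2 had 0.041 and -0.000287.

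**Figure D5:**
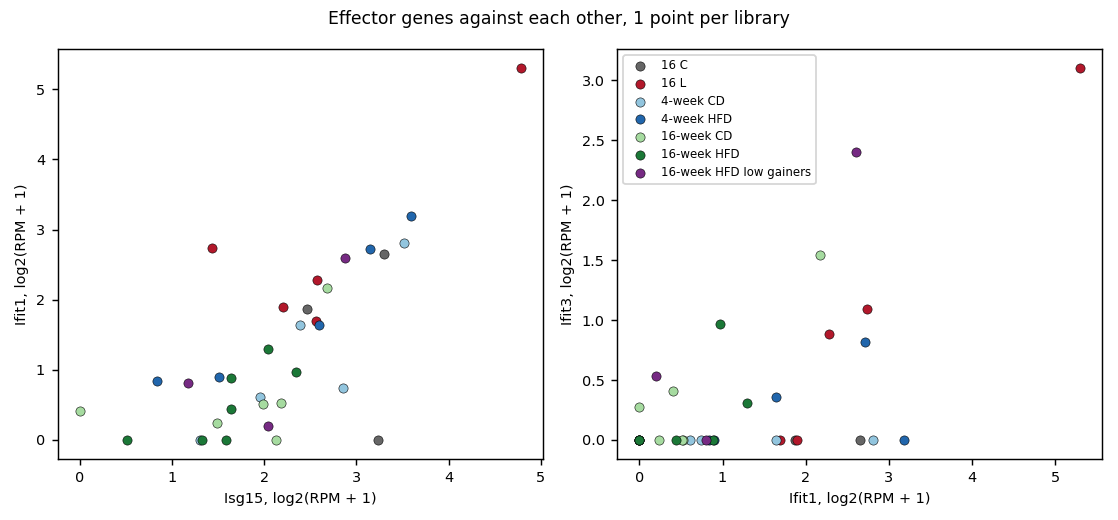
Ifit1 against Isg15 (left) and Ifit3 against Ifit1 (right), as log2(RPM + 1), with 1 point per library coloured by group. Libraries with more Isg15 held more Ifit1, and 16 L replicate 18 lies at the upper right of both plots.

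Across the 34 libraries, with group means removed, each of the 7 members that passed the filter was compared with the mean of the others. The correlation was highest for Irf9 (r = 0.694) and lowest for Isg15 (r = 0.404). Of 13229 genes, those with a profile most like the mean of the 7 members were 2010111I01Rik (r = 0.803), Srsf5 (0.756), Prr14 (0.753), Zdhhc4 (0.752) and AF251705 (0.728). These values describe the libraries, which differ in depth, and none of the 5 genes is in the pathway lists.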

How the data were processed

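Cumulus cell RNA was captured with oligo-dT beads, amplified by Smart-seq2 and made into Nextera XT libraries, which do not keep strand. The deposited table holds raw counts per gene, made by the authors with 1 column per library. The submitters' processing notes name Trim Galore 0.4.2, HISAT2 2.0.5 and GRCm38. The counting program is not given in the sources used here. All 34 count columns were mapped to libraries by name. Counts were tested with edgeR 4.0.16 (R 4.3.3; TMM, filterByExpr, robust quasi-likelihood fit, two-sided) on the groups of each comparison, with Benjamini-Hochberg adjustment over all genes tested and calls at 0.05. Members that failed the filter were tested by exact permutation of log2(RPM + 1). Pairs were permuted 100000 times within groups. The model fits were tested on simulated counts. Alternatives were RLE or total-count scaling, DESeq2 1.42.0, no filter, all 34 libraries in 1 fit, a pseudocount of 0.1, TMM scaling of the correlations, each library left out in turn and, for diet by time, the replicate number as a block. The limit of a count of 0 was 3 counts, for counting error only. Named were the 9 members, called pathway genes (at most 6 per comparison by adjusted p) and the 5 genes most like the member mean. 1 gene of the pathway list is not reported here. The members and lists were chosen with earlier results of these data known.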

Additional observations from a re-analysis of the deposited data

Results flagged for a closer look

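Of 43 sets of values, each 1 gene in 1 group of 5 to 7 libraries, 7 had a highest library whose gap to the next was large for the range of the group (Dixon's test). Chance flags about 1 set in 20 when values are normally spread. That rate does not hold for sets with many counts at or near 0, so the 7 flags are not set against it. All 7 were values of Ifit genes. In 16 L, replicate 18 held 44.1 CPM of Ifit1 (258 reads) and 8.73 CPM of Ifit3 (51 reads), while the next libraries held 4.37 and 0.873 CPM. This is the library with 36504 CPM of oviduct epithelium markers. In 16-week CD, replicate 5 held 3.53 CPM of Ifit1 (20 reads) and 1.94 CPM of Ifit3 (11 reads), and replicate 13 held 1.95 CPM of Ifit2 (4 reads). The remaining values were 1.08 CPM of Ifit3 in 16-week HFD replicate 15 (4 reads) and 0.437 CPM of Ifit2 in 4-week HFD replicate 4 (2 reads). Those of 4 reads or fewer rest on counts near the limit of detection.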

How the results depend on the processing

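Replicate numbers are shared between groups only in diet by time, for 7 pairs of libraries from different groups. Deviations from the group means correlated at -0.227 to 0.113 within these pairs, so the numbers were not taken to pair the libraries. With a replicate block, added after seeing the data, 10 genes, 0 members and 0 pathway genes were called, and Isg15 turned to 2.41 (SE 2.16). Few reads limit Ifit2 and Ifit3, and groups of 3 libraries limit 16 C and the low gainers. The causes of the changes below were not tested.

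In 16 L against 16 C, scaling by total counts called 4035 genes, 3 members and 26 pathway genes. DESeq2 called 2629, 1 and 16. All 34 libraries in 1 fit gave 4384, 1 and 29. With no low-count filter 504 genes and 1 pathway gene were called. Under total counts the log2 fold changes of Irf9 and Isg15 turned to 0.74 and 0.29, and with a pseudocount of 0.1 the difference of Ifit2 turned to 0.14. With single libraries left out, the counts ran from 30 (without 16 C replicate 1) to 4635 genes (without 16 L replicate 18), 0 to 2 members and 0 to 29 pathway genes. Signs turned within -0.07 to 0.44 for Irf1, -0.27 to 0.09 for Irf9 and -0.59 to 0.50 for Ifit2.

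At 4 weeks, DESeq2 called 1291 genes and 9 pathway genes, and the fit of all 34 libraries 69 and 0. Under total counts Irf1, Irf9 and Oasl2 turned to -0.12, -0.04 and -0.03. Leaving out libraries gave 8 (without CD replicate 8) to 1700 genes (without CD replicate 11) and 0 to 8 pathway genes. Log2 fold changes ran from -0.49 to 0.26 for Stat2, -0.20 to 0.26 for Irf1, -0.01 to 0.28 for Irf9 and -0.32 to 0.43 for Isg15.

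At 16 weeks, total counts called 1646 genes, 4 members and 9 pathway genes, DESeq2 1056, 2 and 5, and the fit of all 34 libraries 1258, 2 and 5. No filter gave 13 genes. Leaving out libraries gave 1 to 2222 genes, 0 to 3 members and 0 to 12 pathway genes, each highest without CD replicate 9. Isg15 ran from -0.33 to 0.21, Ifit1 from -0.26 to 0.17 and Ifit3 from -0.32 to 0.05.

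For low gainers against 16-week HFD, total counts called 3 members, DESeq2 2, and all 34 libraries in 1 fit 487 genes, 0 members and 2 pathway genes. The main fit called 20.7% of all genes. The shares under total counts and DESeq2 are not given here, so their member calls are not set apart from the background. Leaving out libraries gave 596 (without low gainer replicate 23) to 2732 genes, 0 to 2 members and 0 to 10 pathway genes. Without replicate 23, Isg15, Ifit1 and Ifit2 reached their lowest values of -0.17, -0.01 and -0.34, against highest values of 0.77, 1.19 and 0.62.

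For low gainers against 16-week CD, total counts called 0 genes, DESeq2 250 genes and 2 pathway genes, and the fit of all 34 libraries 7 genes. Total counts turned Irf9 to -0.11. With libraries left out 0 to 1 gene was called. The ranges that crossed 0 were -0.21 to 0.13 for Irf1, -0.36 to 0.23 for Irf7, -0.04 to 0.28 for Irf9, -0.22 to 0.72 for Isg15, -0.18 to 0.10 for Oasl2, -0.14 to 1.06 for Ifit1, -0.16 to 0.80 for Ifit2 and -0.11 to 1.10 for Ifit3.

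For diet by time, 1 member, Irf7, was called with RLE factors, with total counts (873 genes), with DESeq2 (1165 genes) and with no filter. The fit of all 34 libraries called 157 genes. Leaving out libraries gave 69 (without 4-week HFD replicate 5) to 1685 genes (without 16-week CD replicate 9), 0 to 1 member and 0 to 6 pathway genes, and Isg15 ran from -0.55 to 0.22.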
